A study of Mus musculus with 6 samples.

Results

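Axonemal dyneins bend the sperm tail, and radial spokes pass signals to them. Transcripts of both were examined in whole testes of mice labelled as lacking the transporters MRP5 and MRP9. The members were the genes of the deposited tables whose symbols name an axonemal dynein heavy, intermediate or light chain (Dnah, Dnai, Dnal), a dynein assembly factor (Dnaaf) or a radial spoke protein (Rsph), together with Efcab1, Ccdc39, Ccdc40, Ccdc114, Ccdc151, Armc4 and Ttc25. This gave 34 of the 24411 genes listed, of which 11 are heavy chains, and all 34 passed the filter on low counts.

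RNA was sequenced from 3 testes samples labelled MRP5-/- and MRP9-/- (DKO, for double knockout) and 3 labelled wildtype (WT). The mice were age matched, of strain C57BL/6, a standard inbred line, and no age, treatment or further allele is named for either group. The labels do not describe how the alleles were made, and they do not tie the animals to a preparation batch. MRP5 and MRP9 are products of Abcc5 and Abcc12, ATP-driven transporters of the ABCC family. Whole testis mixes germ cells of every stage with somatic cells, so fewer cells of a type and less RNA per cell cannot be told apart in these values.

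The axoneme is the microtubule core of cilia and sperm tails. Outer and inner dynein arms walk along neighbouring microtubule doublets and so bend the tail. Each arm is built on very large heavy chains that carry the motor, with intermediate and light chains at their base. Docking proteins fix the outer arms to the doublet, a coiled-coil ruler sets the spacing of inner arms and spokes, and radial spokes pass signals from the central pair to the arms. Dynein arms are put together in the cytoplasm by assembly factors before they are carried into the tail, and in the testis many of these genes are switched on in late spermatocytes and spermatids.

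Depth ranged from 42673615 to 67131103 expected counts in the libraries labelled DKO and from 26753721 to 31745969 in those labelled WT. The mean length of the sequenced fragments was 275 to 317 bases in DKO libraries and 230 to 258 bases in WT libraries, so depth and fragment length both differed between the groups without overlap. Abcc12 was at 72.6 to 82.4 CPM (counts scaled to a common library size) in DKO libraries and 158 to 165 CPM in WT libraries, which is -1.02 ± 0.0739 (SE) as a log2 ratio (adjusted p = 0.000307 by edgeR). Abcc5 was not lower, at 16.8 ± 0.19 CPM against 11.4 ± 0.898 CPM (SD, n = 3 each, log2 ratio 0.56 ± 0.0896 SE, adjusted p = 0.0225 by edgeR). Its RNA level thus does not show the loss that the label names, and the alleles are not described. The groups are named by their labels throughout.

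The stretches of DNA before the start of the outer arm heavy chain genes are shown first, because this class holds both strongly and barely expressed members. The 250 bases before each start site are from the RefSeq table for GRCm38.p6, a patch release of the assembly also called mm10, which is named in the submitters' processing notes. They are written 5′ to 3′ on the gene's strand, and capitals mark a GTTGCC half-site of the X-box, the motif bound by RFX factors. The windows lie at chr17:30626686-30626935 (plus strand), chr11:118129220-118129469 (minus strand), chr11:66168552-66168801 (minus strand), chr15:28203516-28203765 (plus strand) and chr12:118199044-118199293 (minus strand).
Dnah8: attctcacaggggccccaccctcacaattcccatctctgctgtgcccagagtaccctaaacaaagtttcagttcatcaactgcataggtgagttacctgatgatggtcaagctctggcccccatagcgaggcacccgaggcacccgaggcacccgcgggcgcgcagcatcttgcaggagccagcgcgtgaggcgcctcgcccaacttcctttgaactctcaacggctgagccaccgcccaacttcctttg
Dnah17: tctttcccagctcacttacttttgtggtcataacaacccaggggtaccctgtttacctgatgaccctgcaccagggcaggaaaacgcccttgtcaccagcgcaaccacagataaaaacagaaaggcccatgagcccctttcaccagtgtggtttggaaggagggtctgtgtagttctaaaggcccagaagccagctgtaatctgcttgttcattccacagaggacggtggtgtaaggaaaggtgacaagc
Dnah9: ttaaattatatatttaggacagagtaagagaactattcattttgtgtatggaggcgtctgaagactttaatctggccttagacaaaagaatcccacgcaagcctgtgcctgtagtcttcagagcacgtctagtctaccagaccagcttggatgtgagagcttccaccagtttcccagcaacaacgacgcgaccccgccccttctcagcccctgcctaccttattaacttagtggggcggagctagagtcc
Dnah5: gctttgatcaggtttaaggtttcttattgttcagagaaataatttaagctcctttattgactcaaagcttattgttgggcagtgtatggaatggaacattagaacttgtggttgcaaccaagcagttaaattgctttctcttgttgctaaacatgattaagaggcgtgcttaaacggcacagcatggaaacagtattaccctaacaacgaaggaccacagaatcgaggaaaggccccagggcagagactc
Dnah11: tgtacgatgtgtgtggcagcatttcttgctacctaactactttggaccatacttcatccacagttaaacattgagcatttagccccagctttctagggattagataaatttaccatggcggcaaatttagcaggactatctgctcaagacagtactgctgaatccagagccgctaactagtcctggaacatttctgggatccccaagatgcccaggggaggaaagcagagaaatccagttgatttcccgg
None of these 5 windows held this exact half-site on either strand, and variants of it were not searched. The Dnah8 window had the highest GC content of the 5, at 59.2%, with 13 CpG dinucleotides. Dnah17, the other highly expressed gene, had 51.2% GC and 3 CpG. The 3 genes with low levels had 48.4% (Dnah9), 41.2% (Dnah5) and 46% (Dnah11) GC, beside a median of 52.4% and 6 CpG over all 32851 promoters of the table.

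Among outer arm heavy chains, the testes held the forms known from sperm and little of the forms known from airway cilia. Dnah8, a sperm outer arm heavy chain, had 94.6, 95.8 and 97.1 TPM (the estimated share of transcripts, scaled for length) in DKO libraries and 93.0, 90.7 and 89.9 TPM in WT libraries. Dnah17, its partner of the other outer arm type, had 40.7, 45.3 and 47.5 TPM in DKO and 50.1, 50.7 and 47.1 TPM in WT. Dnah9, the ciliary relative of Dnah17, had 0.79 to 0.86 TPM in DKO and 0.94 to 0.96 TPM in WT. Dnah5, the ciliary relative of Dnah8, had 0.31 to 0.40 TPM in DKO and 0.27 to 0.36 TPM in WT. Dnah11, known for its part in left-right asymmetry, was lowest at 0.06 to 0.12 TPM over the 6 libraries, from 16.4 to 76.4 expected counts.

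The order Dnah8, Dnah17, Dnah9, Dnah5, Dnah11 was the same in every library, and no neighbours in it overlapped. Within a library, Dnah8 stood 237 to 333 times above Dnah5, and Dnah17 stood 49.0 to 58.7 times above Dnah9. These ratios overlapped between the groups. The ratio of Dnah8 to Dnah17 did not overlap, at 2.33, 2.11 and 2.04 in DKO libraries and 1.86, 1.79 and 1.91 in WT libraries (2.16 ± 0.147 against 1.85 ± 0.0599, SD, n = 3 each). This ratio and the others below were chosen after the values of their genes were seen.

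Between the genotypes, 2 of the 34 members were called at an adjusted p under 0.05, both higher in DKO libraries (5.88% of the members, edgeR quasi-likelihood test with Benjamini-Hochberg adjustment over all 17110 tested genes). Over all tested genes 10.8% were called, 5.75% higher and 5.1% lower, and the difference from the share of members was not tested. DESeq2 called 7 members (20.6%) beside 17.2% of all genes, and 10 members (29.4%) had an unadjusted p under 0.05 by edgeR, beside 31.7% of all genes. Both called members, Efcab1 and Armc4, belong to the docking apparatus. The CPM of the groups did not overlap for 16 of the 34 members (47.1%, 11 higher and 5 lower in DKO), where 35.9% of all tested genes did not overlap. The median log2 fold change of the members was 0.01, and that of all tested genes was -0.0042. For the 28 uncalled members with a mean of at least 1 TPM, the 95% intervals of the log2 fold change lay between -0.40 and 0.61.

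**Figure D1:**
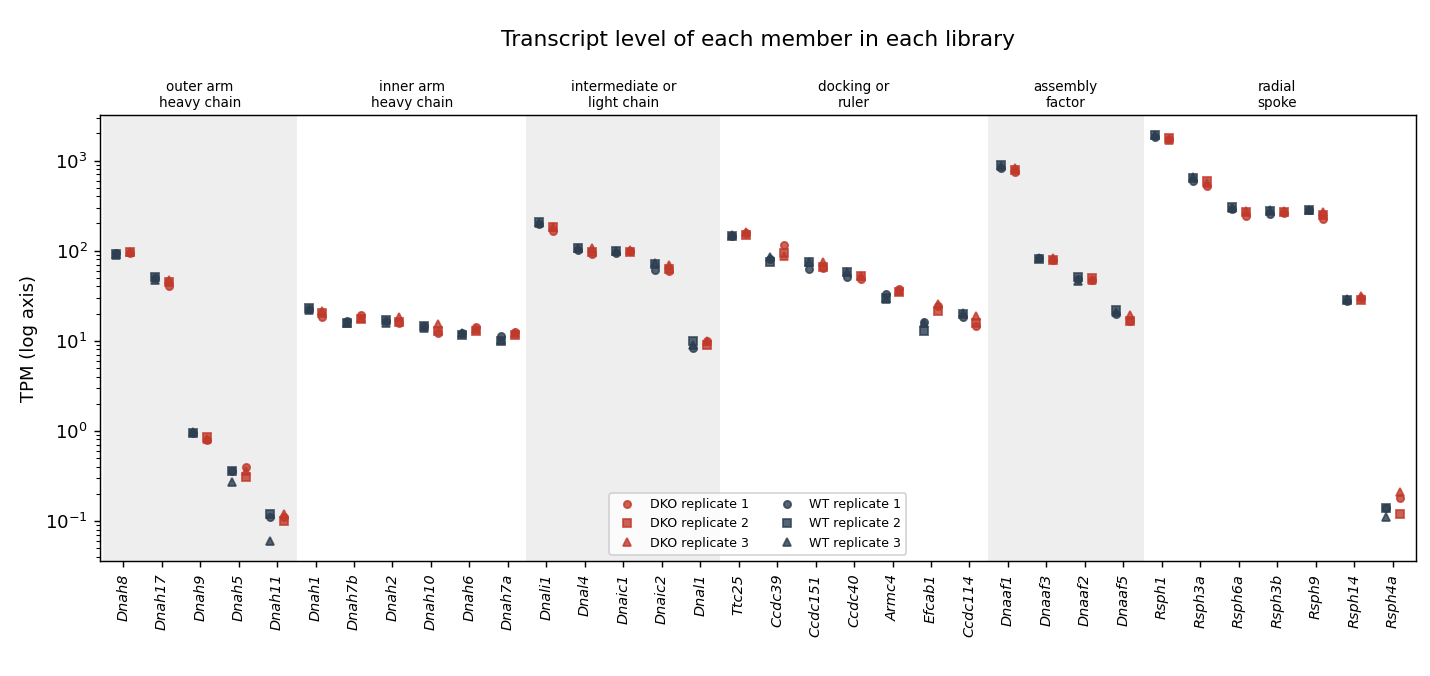
TPM of the 34 members (vertical log axis) in each of the 6 libraries, grouped by role and ordered by mean level within a role; red symbols are DKO and dark symbols WT libraries. Rsph1 is highest at 1699.7 to 1911 TPM, while Dnah9, Dnah5, Dnah11 and Rsph4a lie under 1 TPM in both genotypes.

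Of the outer arm heavy chains, Dnah8 came closest to the threshold. It had 964, 994 and 933 CPM in DKO libraries and 925, 820 and 859 CPM in WT libraries, which did not overlap but lay close at 933 and 925. Its log2 fold change was 0.15 (SE 0.0732), with an interval from -0.0099 to 0.31, and it was not called (adjusted p by edgeR = 0.183). Dnah17 had 424 to 480 CPM against 459 to 509 CPM, with a log2 fold change of -0.0682. Dnah5 and Dnah11 had wider intervals, from -0.13 to 0.55 and from -0.26 to 0.90, and a difference within them was not detectable at this depth. Dnah9 had an interval from -0.36 to 0.08.

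The 6 inner arm heavy chains measured lay in a narrow band of levels. Their means over all libraries were 21.3 TPM for Dnah1, 17.1 for Dnah7b, 16.5 for Dnah2, 13.9 for Dnah10, 12.8 for Dnah6 and 11.3 for Dnah7a. Dnah1, mutated in men with malformed sperm tails, had 18.2, 20.4 and 21.1 TPM in DKO and 22.8, 23.2 and 22.0 TPM in WT. In CPM its groups overlapped at 163, 187 and 179 against 199, 184 and 185, with a log2 fold change of -0.11 (SE 0.0749, adjusted p by edgeR = 0.355).

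Dnah6, Dnah7a and Dnah7b were singled out after their values were seen, because their CPM did not overlap and their adjusted p lay just above the threshold. Dnah6 had 125, 116 and 113 CPM in DKO libraries against 106, 90.7 and 99.5 CPM in WT libraries (log2 fold change 0.26, SE 0.0784, adjusted p by edgeR = 0.0530). Dnah7a had 108, 99.8 and 98.6 CPM against 93.5, 76.1 and 82.6 CPM (0.28, SE 0.0846, adjusted p by edgeR = 0.0530). Dnah7b had 165, 153 and 145 CPM against 139, 119 and 126 CPM (0.27, SE 0.0814, adjusted p by edgeR = 0.0529). All 3 are single-headed inner arm dyneins, and each stood higher in every DKO library than in any WT library. No heavy chain was called by edgeR (0 of 11), beside 10.8% of all tested genes and 9.24% of those of 12000 bases or more. At an unadjusted p under 0.05 by edgeR there were 3, beside 31.7% of all genes. DESeq2 called these 3 at adjusted p = 0.0250, 0.0225 and 0.0216, beside 17.2% of all genes. With limma on log2(TPM + 1) 0 were called, beside 4.3%.

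Dnah7a and Dnah7b are near copies on chromosome 1, and 30.6% of the distinct 50-base windows of the Dnah7a transcript also occur in that of Dnah7b. Both carried fractional counts, so part of the reads was split between them by estimation. Their summed level was 256.5 ± 14.9 CPM in DKO and 212 ± 19.2 CPM in WT libraries (SD, n = 3 each), and the ratio of Dnah7b to Dnah7a in TPM was 1.47 to 1.53 against 1.48 to 1.55. Their upstream windows are shown because the genes are near copies, at chr1:53706785-53707034 (minus strand) and chr1:46066603-46066852 (plus strand).
Dnah7a: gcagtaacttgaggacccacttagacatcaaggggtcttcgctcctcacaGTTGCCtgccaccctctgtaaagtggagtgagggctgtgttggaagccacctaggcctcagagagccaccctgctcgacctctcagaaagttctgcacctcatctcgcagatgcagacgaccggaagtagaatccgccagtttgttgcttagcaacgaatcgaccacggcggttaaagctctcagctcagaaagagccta
Dnah7b: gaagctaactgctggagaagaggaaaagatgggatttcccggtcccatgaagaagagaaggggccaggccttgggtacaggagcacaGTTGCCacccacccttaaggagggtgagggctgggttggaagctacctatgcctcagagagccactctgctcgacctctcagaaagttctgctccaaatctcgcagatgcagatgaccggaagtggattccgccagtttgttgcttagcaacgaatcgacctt
In a global alignment 186 of 287 columns were identical (64.8%). Each window held 1 GTTGCC half-site, which starts 200 bases before the start of Dnah7a and 163 bases before that of Dnah7b.

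Over all members, 28 matched the promoter table by symbol. The half-site GTTGCC, searched on both strands, occurred in 5 of them (Dnaaf2, Dnah10, Dnah7a, Dnah7b and Dnaic2) and in 10.4% of all promoters. The fuller X-box palindrome reads GTNNCC, any 2 bases and GGNNAC, so it is the same on both strands and can contain the half-site. It occurred in 2 members and in 1.57% of all promoters. The Ccdc151 match GTTTCCTTGGGAAC lies at chr9:22002655-22002668 (minus strand), and the Dnaaf5 match GTTCCCTTGGAGAC at chr5:139150217-139150230 (plus strand). The cyclic AMP response element TGACGTCA, the site of CREM in spermatids, occurred in the Dnah6 window at chr6:73221799-73221806 (minus strand) and in 1.55% of all promoters. Only these exact patterns were searched, so X-box forms with other letters or spacing were not counted, also in the windows printed above. These matches are letters in a window and were not tested for binding.

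None of the 5 intermediate and light chains was called, beside 10.8% of all tested genes. Of these 5, all but Dnal1 had a higher mean TPM than every heavy chain other than Dnah8. Dnali1, an inner arm light chain, was highest of them. It had 167, 185 and 181 TPM in DKO and 200, 208 and 201 TPM in WT libraries, and the groups did not overlap. In CPM these were 211, 241 and 220 against 254, 243 and 247, which came close at 241 and 243 (log2 fold change -0.15, SE 0.0728, adjusted p by edgeR = 0.191). Dnaic1 and Dnaic2, the intermediate chains of the outer arm, had means of 97.5 and 66.2 TPM over all libraries. The light chain Dnal4 had 101.9 TPM, and Dnal1, a light chain bound to an outer arm motor, had 9.35 TPM. The log2 fold changes of the 5 ranged from -0.15 to 0.16.

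The docking and ruler proteins held both called members. Efcab1, also named calaxin, is a calcium-binding protein of the outer arm. It had 14.2, 12.9 and 14.5 CPM in DKO libraries and 9.68, 7.22 and 9.28 CPM in WT libraries. Every DKO library stood above every WT library, and the gap between the groups was wider than the range within either. The log2 fold change was 0.68 (SE 0.117, interval 0.42 to 0.93), a 1.60-fold higher level (adjusted p by edgeR = 0.0233). In TPM it was 23.7 ± 2.17 against 14.8 ± 1.80 (SD, n = 3 each).

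Efcab1 lies on chromosome 16 at 14906224 to 14969061, 5.36 Mb from Abcc5, and is the only member on the chromosome of Abcc5. Dnaaf1 is the only member on chromosome 8 with Abcc12, at a distance of 33.0 Mb. Efcab1 had whole counts in every library and no exon in common with another gene of the GENCODE M21 annotation.

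Armc4, a docking protein of the outer arm, was the other called member. It had 83.6, 79.7 and 76.6 CPM in DKO and 73.4, 60.4 and 62.1 CPM in WT libraries, with no overlap. Its log2 fold change was 0.29 (SE 0.0849, interval 0.11 to 0.48), just inside the threshold (adjusted p by edgeR = 0.0493).

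The remaining proteins of the outer arm docking complex were not called and differed in direction. Ttc25 had 277, 274 and 273 CPM in DKO and 257, 235 and 253 CPM in WT libraries, again without overlap (log2 fold change 0.15, SE 0.0677, adjusted p by edgeR = 0.167). Ccdc151 had 87.2, 90.2 and 96.8 CPM against 84.6, 93.7 and 98.1 CPM, which overlapped (log2 fold change -0.0113). Ccdc114 had 22.0, 24.8 and 27.2 CPM against 27.6, 28.1 and 29.7 CPM, lower in every DKO library (log2 fold change -0.20, adjusted p by edgeR = 0.149). In TPM its groups overlapped, with 18.58 in the third DKO library and 18.09 in the first WT library. Within a library, the TPM ratio of Ttc25 to Ccdc114 was 10.8, 9.44 and 8.60 in DKO and 8.00, 7.21 and 7.31 in WT. It stood in the same order as the mean fragment length of the libraries. The ratio of Efcab1 to Armc4, the 2 called genes, was 0.663 ± 0.0470 in DKO and 0.489 ± 0.0575 in WT (SD, n = 3 each), also without overlap.

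Ccdc39 and Ccdc40 form the ruler together, and their transcripts did not keep a fixed ratio. Ccdc39 had 273, 225 and 196 CPM in DKO and 187, 161 and 193 CPM in WT libraries. The third DKO library stood just above the highest WT library. The log2 fold change was 0.36 (SE 0.115, adjusted p by edgeR = 0.0626). Ccdc40 had 160, 177 and 167 CPM against 168, 172 and 182 CPM, which overlapped (log2 fold change -0.0486). The TPM ratio of Ccdc39 to Ccdc40 was 2.42, 1.79 and 1.65 in DKO and 1.57, 1.32 and 1.49 in WT. This ratio, too, stood in the order of mean fragment length, which differed between the groups. Ccdc39 shares exonic sequence with Ttc14 on the other strand, and its counts were partly fractional, so its reads cannot be fully told from those of other genes.

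**Figure D2:**
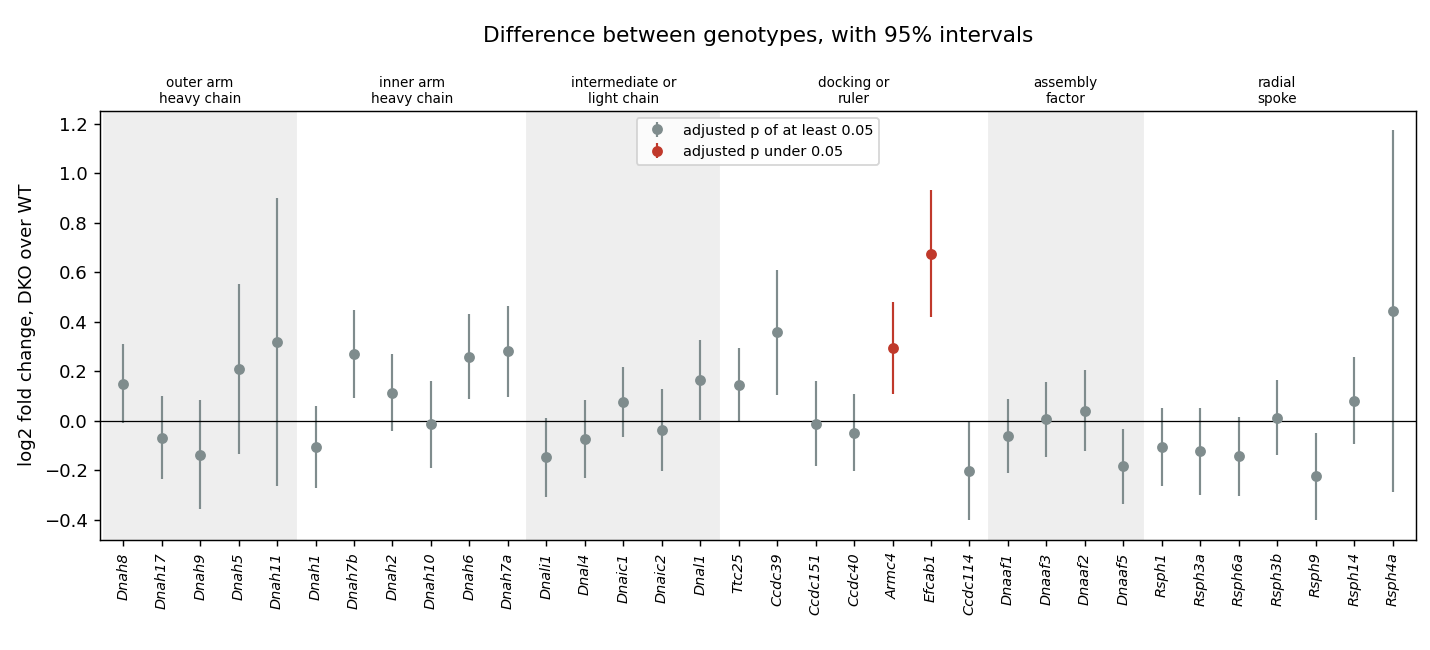
Log2 fold change of each member, DKO over WT (points), with its 95% interval (lines), by role; red marks an edgeR adjusted p under 0.05. Only Efcab1 at 0.68 and Armc4 at 0.29 are red, and the widest intervals belong to Rsph4a and Dnah11, the members with the fewest counts.

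None of the 4 assembly factors was called, beside 10.8% of all tested genes. Dnaaf1, a leucine-rich repeat protein needed to preassemble both arms, had 754, 795 and 834 TPM in DKO and 828, 891 and 868 TPM in WT libraries, more than the other 3 assembly factors together. Its CPM overlapped at 1349, 1462 and 1426 against 1474, 1455 and 1490 (log2 fold change -0.0612, SE 0.0690, adjusted p by edgeR = 0.576). Dnaaf3, Dnaaf2 and Dnaaf5 had means of 80.9, 48.1 and 19.2 TPM. Dnaaf3 had a log2 fold change of 0.0057 with an interval from -0.15 to 0.16, the value nearest to 0 of all members. Dnaaf5 had 37.4, 38.3 and 40.7 CPM against 44.0, 44.1 and 44.1 CPM, lower in each DKO library (log2 fold change -0.18, adjusted p by edgeR = 0.0968).

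Radial spoke genes included the most abundant member. Rsph1, a spoke head protein, had 1730.5, 1782 and 1699.7 TPM in DKO and 1815, 1904 and 1911 TPM in WT libraries, and was above 99.8% of all listed genes. In CPM the groups overlapped, at 1046, 1132 and 1014 against 1142, 1120.0 and 1169.9 (log2 fold change -0.10, SE 0.0718, adjusted p by edgeR = 0.343). The spoke head pair Rsph6a and Rsph4a repeated the split seen in the outer arm. Rsph6a, the form known from male germ cells, had 245, 267 and 274 TPM in DKO and 287, 304 and 297 TPM in WT. Rsph4a, the form of motile cilia, had 0.18, 0.12 and 0.21 TPM in DKO and 0.14, 0.14 and 0.11 TPM in WT, from 8 to 32 expected counts. Within a library Rsph6a stood 1303 to 2697 times above Rsph4a.

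Rsph9, another spoke head protein, had 100.4, 118 and 119 CPM in DKO and 128 to 136 CPM in WT libraries. All DKO libraries were lower, and the first was lowest, but the difference was not called (log2 fold change -0.22, SE 0.0800, adjusted p by edgeR = 0.0835). The near copies Rsph3a and Rsph3b, which code for the spoke stalk protein, had means of 594 and 269 TPM over all libraries. Of the distinct 50-base windows of the Rsph3b transcript, 84.7% also occur in Rsph3a, and both had fractional counts. The TPM ratio of Rsph3a to Rsph3b was 2.09 ± 0.115 in DKO and 2.32 ± 0.0193 in WT (SD, n = 3 each) without overlap, a share of reads that depends on the estimated split. Their sum overlapped, at 904 ± 60.8 CPM against 961 ± 48.6 CPM (SD, n = 3 each). Rsph14 had a mean of 29.0 TPM and a log2 fold change of 0.08.

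In the GENCODE M21 annotation, 19 of the 34 members share exonic sequence with a gene on the other strand, Dnaaf1 with Taf1c, Dnali1 with Gnl2 and Dnah17 with Pgs1 among them. Strand handling in the counting is not given in the sources used here, so reads of these overlaps cannot be told apart. On their own strand, Dnaaf2 also shares exonic sequence with Gm49383 and Gm49384, and Dnaaf3 with Tnni3. Armc4, Ttc25, Rsph1, Rsph6a and Rsph9 have no such overlap.

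Outside the docking and ruler class, edgeR called 0 of 27 members, beside 10.8% of all tested genes. This 0 follows from leaving out the class that holds both called members. At an unadjusted p under 0.05 there were 6, beside 31.7% of all tested genes. DESeq2 called 4 (Dnah6, Dnah7a, Dnah7b and Rsph9), beside 17.2% of all genes, and limma on log2(TPM + 1) called 0, beside 4.3%.

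The length column of the tables adds 1 difference within the spoke genes. It is a mean over the annotated transcripts of a gene, weighted by their estimated abundance, and only Ccdc151, Rsph14 and Rsph6a have several. For Rsph6a it was 2274, 2310 and 2287 bases in DKO and 2319.8, 2312 and 2322 bases in WT (2290.4 ± 18.2 against 2318 ± 5.06, SD, n = 3 each), shorter in each DKO library. For Ccdc151 and Rsph14 the groups overlapped. Among 4805 tested genes with several transcripts, the lengths of 15.5% did not overlap between the groups.

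Long heavy chains were then set against the short members. The 11 heavy chains have transcripts of 12272 to 15616 bases, and the other 23 members have 942 to 5758 bases. The median log2 fold change was 0.15 for heavy chains, with 7 of 11 above 0, and -0.0113 for the other members, with 11 of 23 above 0. By library, the median of the heavy chains relative to their WT mean was 0.15, 0.11 and 0.17 on the log2 CPM scale in DKO and 0.09, -0.0398 and -0.0319 in WT. The gap between the groups was thus narrow, since the first WT library lay just below the lowest DKO library.

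All tested genes of the same length were read beside them. All 119 tested genes of 12000 bases or more, the heavy chains among them, had a median of 0.06, the 7474 genes of 2500 to under 6000 bases had 0.03, and the 8046 genes under 2500 bases had -0.0644. The members in these classes had medians of 0.15 (11 genes), 0.09 (10 genes) and -0.0733 (13 genes). With each library's trend on transcript length removed, the heavy chain median was 0.05 and that of all genes of their length -0.0421. On that scale 7 of 11 heavy chains were still above 0, and the log2 fold changes of Dnah6, Dnah7a and Dnah7b were 0.16, 0.19 and 0.18 (adjusted p by edgeR = 0.125, 0.0953 and 0.106). Efcab1, whose transcript has 1128 bases, went against the trend of its length class. It was at 0.74 with the trend removed (adjusted p by edgeR = 0.0224). Armc4 lost its call there, at 0.27 (adjusted p by edgeR = 0.0578), and also with the effective-length offset (adjusted p by edgeR = 0.0545) and on log2(TPM + 1) (adjusted p by limma = 0.0875). Across the 34 members, Spearman's rho between length and log2 fold change was 0.32, and 0.068 with the trend removed, as a description over genes that share the same libraries.

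**Figure D3:**
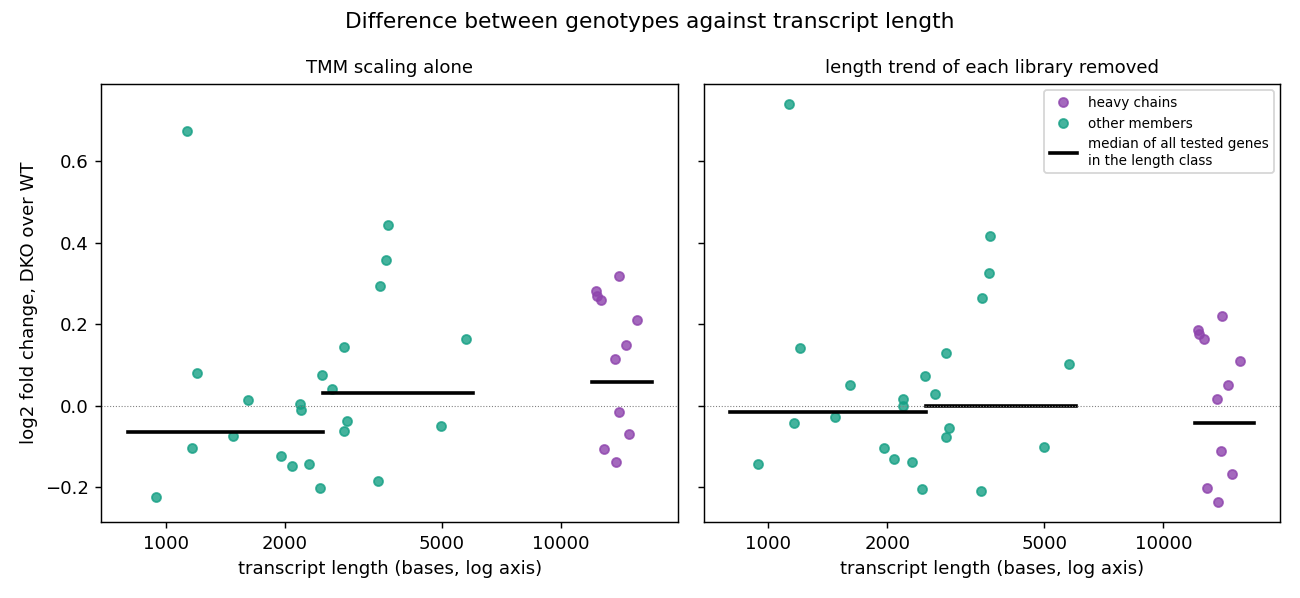
Log2 fold change of each member, DKO over WT (vertical axis), against transcript length (horizontal log axis), with TMM scaling alone (left) and with the length trend of each library removed (right); black bars are medians of all tested genes in 3 length classes. The heavy chains have a median of 0.15 on the left and 0.05 on the right, while Efcab1 stays highest on both sides.

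The levels of several members also followed the fragment length of the library. Sorted by mean fragment length, the CPM of Armc4, Dnah6, Dnah7a, Dnah7b and Ttc25 stood in the same order as fragment length in all 6 libraries, and that of Dnaaf5 in the reverse order. Of all tested genes, 5.07% stood in the same order and 2.05% in the reverse. The TPM ratios of Ccdc39 to Ccdc40 and of Ttc25 to Ccdc114 also followed the order of fragment length in all 6 libraries. With fragment length as a covariate, the log2 fold change was 0.05 for Armc4 and 0.02, 0.02 and 0.0011 for Dnah6, Dnah7a and Dnah7b, and -0.16 for Ccdc39. Efcab1 was at 0.49 in that fit (adjusted p by edgeR = 0.999). There edgeR called 0 of the 34 members and only 1 of all 17110 tested genes. Efcab1 alone of the members had an unadjusted p under 0.05. Because fragment length did not overlap between the genotypes, its part and that of genotype cannot be told apart for these genes and ratios.

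**Figure D4:**
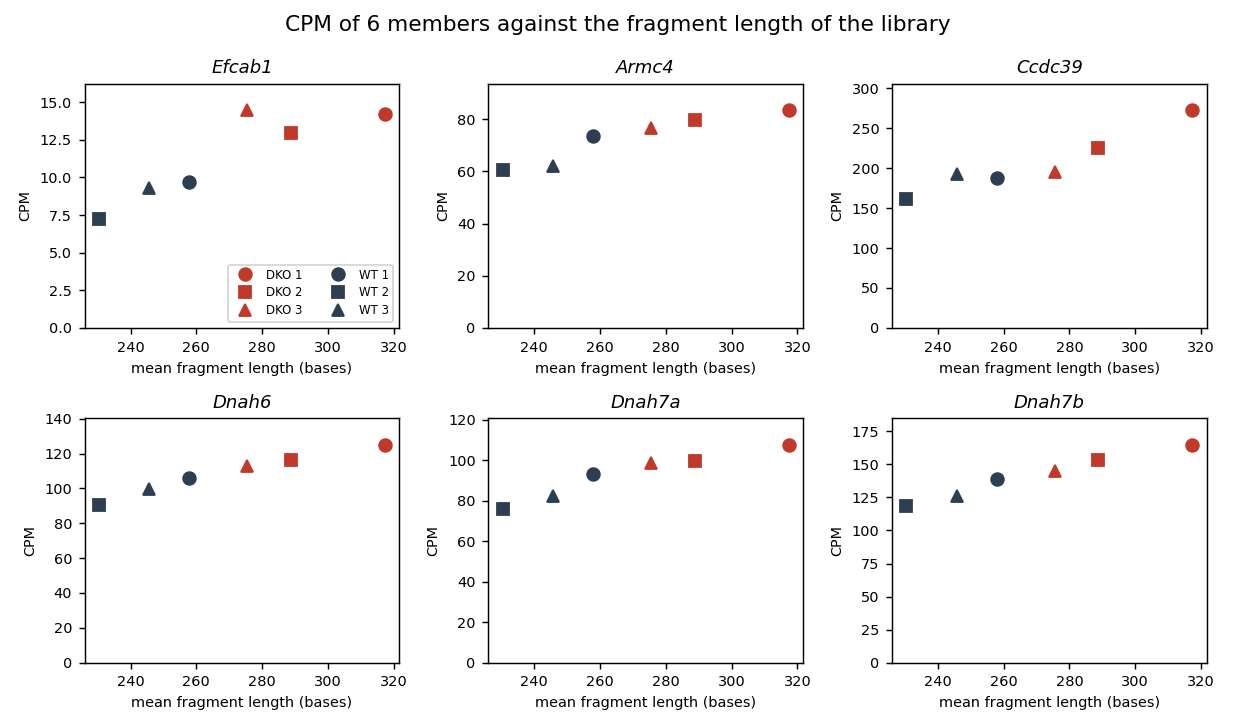
CPM of Efcab1, Armc4, Ccdc39, Dnah6, Dnah7a and Dnah7b (vertical axes from 0) against the mean fragment length of each library in bases (horizontal axes); red symbols are DKO and dark symbols WT libraries. Armc4, Dnah6, Dnah7a and Dnah7b climb through all 6 libraries, and Efcab1 steps from at most 9.68 CPM in WT to at least 12.9 CPM in DKO.

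The 2 calls also depended on single libraries, as did the calls over all tested genes. Against 1856 genes with all 6 libraries, edgeR called 11 without DKO replicate 1, 13 without WT replicate 2 and 7 without WT replicate 3. Without DKO replicate 2 it called 655. The call of Efcab1 was lost without DKO replicate 1, WT replicate 2 or WT replicate 3 (adjusted p by edgeR = 0.0980, 0.0669 and 0.0993). Its unadjusted p by edgeR in these fits was 0.000848, 0.00034 and 0.000443. Over the 6 fits that left out a library, its log2 fold changes ran from 0.55 to 0.74. The call of Armc4 was lost without DKO replicate 1, DKO replicate 2, WT replicate 2 or WT replicate 3 (adjusted p by edgeR = 0.172, 0.103, 0.181 and 0.163). Its unadjusted p by edgeR in these fits was 0.0193, 0.0154, 0.0274 and 0.0312. Over the 6 fits its log2 fold changes ran from 0.23 to 0.37.

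Other axoneme genes were taken from lists drawn up by function, and 10.8% of all tested genes were called. In the nexin-dynein regulatory complex, which links neighbouring doublets, edgeR called 0 of 11 tested genes (6 at an unadjusted p under 0.05, 4 by DESeq2 and 0 by limma on log2(TPM + 1)), with a median log2 fold change of -0.0930. In the central apparatus, 3 of 12 were called, all higher in DKO, with a list median of 0.17. They were Cfap69, Spef2 and Spag17, at 0.50, 0.41 and 0.35 (adjusted p by edgeR = 0.0272, 0.0343 and 0.0498). Cfap69 had 512, 448 and 398 CPM in DKO against 353, 279 and 328 CPM in WT libraries. With the length trend removed, Spag17 was no longer called (adjusted p by edgeR = 0.0643). Of 12 further spoke and spoke-base proteins, 2 were called, both higher, with a list median of 0.07. These were Dydc1 at 0.41 and Iqub at 0.31 (adjusted p by edgeR = 0.0349 and 0.0478), and Iqub lost its call with the length trend removed (adjusted p by edgeR = 0.0544). That fit again called 2 genes of this list, both higher, beside 1764 of all 17110 tested genes.

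Of 20 other dynein and assembly proteins, 4 were called, 3 of them higher, with a list median of 0.18. Pih1d3, an assembly factor, had 11.5 ± 1.48 CPM in DKO against 7.58 ± 0.693 CPM in WT libraries (SD, n = 3 each), without overlap (log2 fold change 0.60, SE 0.118, adjusted p by edgeR = 0.0255). Cfap300, listed in the tables under its older symbol 9230110C19Rik, was at 0.35 (adjusted p by edgeR = 0.0333). Ruvbl2, part of a chaperone complex that works on dynein and many other proteins, was lower at -0.34 (adjusted p by edgeR = 0.0387). The fourth was Lrguk, a sperm tail gene that is not itself a dynein part, and its call was lost with the length trend removed (adjusted p by edgeR = 0.0569). In that fit 4 genes of this list were again called, 3 higher and 1 lower, beside 1764 of all 17110 tested genes.

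Cytoplasmic dyneins and the light chains shared with the axoneme had 6 of 18 tested genes called, all lower in DKO, and all 6 code for light chains. Dynlt1b had 224, 272 and 247 CPM in DKO against 334, 325 and 318 CPM in WT libraries (log2 fold change -0.40, SE 0.0810, adjusted p by edgeR = 0.0263). Dynll2 had 380.0, 513 and 396 CPM against 604, 591 and 592 CPM (-0.47, SE 0.104, adjusted p by edgeR = 0.0291). Dynlrb1 was at -0.53 (adjusted p by edgeR = 0.0340). With the length trend removed, Dynlt1b and Dynll2 were still called (adjusted p by edgeR = 0.0341 and 0.0296) and the other 4 were not, with Dynlrb1 nearest (adjusted p by edgeR = 0.0517). The Dynlt1 genes are near copies, so their split is uncertain. In all, that fit called 3 genes of this list, all lower, beside 1764 of all 17110 tested genes. The median of the list was -0.19 without removal of the trend. Of 12 tested transcription factors of cilium and spermatid genes, Rfx1 was called, at -0.32 (adjusted p by edgeR = 0.0496). With the length trend removed 2 of them were called, both lower. With fragment length as a covariate edgeR called 0 genes of these 6 lists, and only 1 of all tested genes.

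Markers of cell types were read beside these values, with 10.8% of all tested genes called by edgeR. Leydig cell markers had 3 of 9 tested genes called and Sertoli cell markers 3 of 12, all lower in DKO. Their summed levels overlapped between the groups. They were 458 to 668 CPM in DKO against 643 to 1213 CPM in WT libraries for Leydig markers. For Sertoli markers they were 1346 to 1553 CPM against 1546 to 1847 CPM. Spermatocyte markers had 3 of 12 called, all higher, with a summed level of 1830.2 to 2184 CPM in DKO and 1685 to 1811 CPM in WT libraries. Of round spermatid markers edgeR called 0 of 10 (2 at an unadjusted p under 0.05, 2 by DESeq2 and 0 by limma), with summed levels of 1738 to 1831 CPM against 1576 to 1833 CPM, which overlapped. Of elongating spermatid markers 2 of 10 were called, 1 in each direction, with 23517 to 27827 CPM against 24565 to 28006 CPM. Of spermatogonia markers edgeR called 0 of 9 (1 at an unadjusted p under 0.05, 0 by DESeq2 and 0 by limma). Of 12 epididymis and efferent duct markers, only 2 passed the filter on low counts, and 1 of these was called, lower in DKO. Lcn5, Lcn8 and Mup4 had no count in any library (at most 0.114 CPM by a limit of 3 counts). The whole list summed to 15.2 to 19.4 CPM in DKO and 26.0 to 28.9 CPM in WT. The part of these shifts in the values of the members was not tested.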

How the data were processed

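Per the submitters' processing notes, STAR 2.7.0f, RSEM 1.2.31, DESeq2 1.12.3 and the mm10 build were used, and strand handling is not given in the sources used here. The deposited tables hold, per the file headers, an expected count (RSEM's estimate, whole in 93.2% of values), TPM, FPKM (not used), length and effective length per gene, with 1 file per library and RefSeq accessions. Depth was 26753721 to 67131103 expected counts.

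Expected counts were rounded and filtered with filterByExpr (17110 genes kept), scaled by TMM and tested with edgeR 4.0.16 (glmQLFit, glmQLFTest, genotype as the only term, all 6 libraries), with Benjamini-Hochberg adjustment over all kept genes and a threshold of 0.05. On simulated counts with known changes the test found the right direction for every changed gene, but a larger share of its calls was false than the threshold allows. The simulated libraries had no difference in fragment length, so the share of false calls in these data can differ from it. Calls close to the threshold are read as less certain than their adjusted p. Mean fragment length is the length minus the effective length plus 1 for long genes, and the length trend is a loess fit (span 0.3) of each library on log length. CPM are TMM-scaled, and TPM are the authors' values. The SE is the absolute log2 fold change divided by the square root of F, and intervals use the fit's degrees of freedom. P-values set the difference between the groups against the spread between these samples, estimated with information shared over genes. Full statistics are given for called members, the member with the highest TPM of each role and both targeted genes, and of the other lists for up to 3 called genes with the smallest p. Statistics of other members were chosen for print after their values were seen. Members and lists were chosen with earlier results of these data known. Alternatives used DESeq2 1.42.0, limma 3.58.1, offsets for length, thinning and single libraries left out. Exonic overlap came from GENCODE M21 and promoters and positions from RefSeq (GRCm38.p6).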

Additional observations from a re-analysis of the deposited data

How the results depend on the processing

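Members called numbered 2 with edgeR, 6 with no filter on low counts, 7 with DESeq2, 1 with limma on log2(TPM + 1), 1 on log2(TPM + 0.1), 1 with the effective-length offset, 1 with the length trend removed and 0 with fragment length as a covariate, where 1 had an unadjusted p under 0.05. Leaving out 1 library gave 0 to 6, and the 3 fits with 0 left out DKO replicate 1, WT replicate 2 and WT replicate 3, with 8, 8 and 7 members at an unadjusted p under 0.05. For all genes, DESeq2 called 2943, limma 735 and 947 on the respective TPM scales and the covariate fit 1, against 1856, and fits without 1 library gave 7 to 3029. Of the calls 53% were higher with edgeR, 38% on log2(TPM + 1), 39.1% on log2(TPM + 0.1), 26% without DKO replicate 2 and 62.8% without DKO replicate 3, and the 3 fits with 7 to 13 calls had 0 higher.

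The heavy chain median of 0.15 was 0.0289 on log2(TPM + 1), 0.0712 on log2(TPM + 0.1), 0.0515 with the length trend removed and 0.0213 with the covariate, and 0.0898 to 0.18 without 1 library. The median of the other members, -0.0113, was -0.0577 and -0.0585 on the TPM scales, reversed to 0.0351 with the covariate, and ranged from -0.0770 to 0.0126 without 1 library. Dnaaf1 reversed to 0.0060 with the covariate. Sign also changed there for Ccdc39, Ccdc40, Ccdc114, Ccdc151, Dnaaf2, Dnaaf3, Dnah5, Dnah10, Dnaic2 and Dnal4. Of these, Ccdc114 moved from -0.2025 to 0.053 and Dnah5 from 0.2106 to -0.0583. The other members kept their sign in that fit. Abcc5 was not called on the 2 TPM scales (adjusted p by limma = 0.107 and 0.105) or with the covariate. It was also not called without DKO replicate 1, WT replicate 2 or WT replicate 3. The causes were not tested. No paired analysis was possible because the labels number the DKO and WT samples separately, with no number in common. Replicates 1 to 3 are names given here in the order of the series and pair nothing. Depth limits Dnah5, Dnah11 and Rsph4a, with 8 to 254 expected counts.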
